A study of Homo sapiens with 9 samples.

Results

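Knockdown of the exon 11a form of ENAH was compared directly with knockdown of all forms of ENAH in a human non-small cell lung cancer line, H2030. The comparison sets the 3 libraries labelled siMENA11a against the 3 libraries labelled siMENA, which are 6 of the 9 libraries of the series. All genes of the table were eligible, and 13498 of 29972 were tested, those whose scaled TPM (a length-corrected share of all transcripts) averaged at least 0.5 over the 9 libraries. This filter did not use the difference between the knockdowns, but a gene high in a single group could pass it through that group. XAF1 did so, with means of 3.63 in siMENA11a, 0.223 in siMENA and 0.251 in control. Genes that low elsewhere were tested only where they were high in siMENA11a, which the counts of calls do not allow for. Many genes named below were chosen by their difference in this contrast, and the gene lists were drawn up with earlier results of these data known. The siMENA11a cells received a custom mix of 3 siRNAs matching exon 11a, the siMENA cells a siGENOME SMARTpool against ENAH, and the 3 control libraries, given here for reference, an ON-TARGETplus non-targeting pool. All cells were transfected with Lipofectamine RNAiMAX at 20 nmol/L of siRNA, per the labels' protocols. The preparations therefore differ in reagent line and pool design as well as in the isoforms they target, and these cannot be told apart. A single cell line was used, the time from transfection to harvest is not given in the sources used here, and no label says whether replicate libraries derive from different cultures, so p-values measure a spread that may be technical.

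ENAH (hMENA) is a protein of the Ena/VASP family that binds growing ends of actin filaments and protects them from capping at the leading edge and at adhesions. Exon 11a is included mainly in epithelial cells, under the control of the splicing factors ESRP1 and ESRP2. Loss of the exon is known from tumour cells that take on a more invasive, mesenchymal state. Much of the contrast below concerns the type I interferon response, in which RNA sensors such as RIG-I (encoded by DDX58) and MDA5 (IFIH1) signal through MAVS to induce interferon beta, and the interferon receptor then acts through STAT2, IRF9 and their partners on genes with an interferon-stimulated response element.

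The targeted gene separated the 2 knockdowns. ENAH read 46.7, 47.5 and 48.7 scaled TPM in the siMENA11a libraries, 6.89, 7.30 and 7.48 in the siMENA libraries and 43.6, 43.2 and 44.7 in the control libraries. Total ENAH was thus low in every siMENA library and near the control level in every siMENA11a library, with no overlap between the knockdowns. The log2 fold change of siMENA11a against siMENA was 2.64 ± 0.04 (SE, n = 3 and 3; limma, adjusted p = 2.17e-10). Against control it was 0.12 for siMENA11a (adjusted p = 0.0247) and -2.52 for siMENA (adjusted p = 4.98e-10). The table gives 1 value per gene, so the level of the isoform with exon 11a was not measured, and the gene's total does not check the siMENA11a label. Of the 3 basic coding transcripts of ENAH in GENCODE 29, 1 holds a 63-base exon that was taken as exon 11a, at chr1:225504991-225505053 on the minus strand of GRCh38. It is shown because it is the target of the siMENA11a mix, with an 8-base stretch in capitals (bases 11 to 18) that returns below among the genes that were lower.
ENAH exon 11a: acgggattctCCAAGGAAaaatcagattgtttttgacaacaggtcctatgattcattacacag

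The libraries of a group were alike (Pearson r of log2 values across genes 0.978 to 0.985 over 9 pairs), and pairs of 1 siMENA11a and 1 siMENA library were less so (0.951 to 0.956 over 9 pairs). RN7SL transcripts, which belong to the protein-targeting particle SRP, made up 44.9% ± 0.487 (SD, n = 3) of siMENA11a TPM, 40.1% ± 0.524 of siMENA TPM and 40.2% ± 0.769 of control TPM. The knockdowns did not overlap in this share, and the exact permutation test gave p = 0.1, two-sided, the smallest that 3 against 3 allows. Size factors ran from 0.886 to 0.973 for siMENA11a and from 1.06 to 1.09 for siMENA. Leaving them out shifted the median over all genes from 0.00 to -0.20 (log2), so all changes below are relative to that median. TPM keeps no sequencing depth, so depth is unknown and no counting interval can be given. Of 12 epithelial markers of lung carcinoma, 6 averaged at least 0.5 scaled TPM, with KRT8 at 89.5, 93.9 and 97.3 and KRT18 at 212, 222 and 252 in siMENA11a, siMENA and control. CDH1, KRT19, CLDN4, NAPSA, NKX2-1 and SFTPB were under that level. So were ESRP1 and GRHL2, which are not among the 12, ESRP1 with its highest value at 0.0459. The leukocyte list summed to 125 to 131 scaled TPM in siMENA11a, 41.3 to 49.6 in siMENA and 97.4 to 105 in control, almost all of it CD68, a lysosomal glycoprotein. Of its 13 markers 7 were listed at 0 in all libraries, among them CD3D, CD3E, CD2, MS4A1, FCGR3A and NKG7. Summed fibroblast markers were 8.04 to 8.47 in siMENA11a, 15.6 to 17.4 in siMENA and 8.95 to 9.6 in control. Most of that was COL1A1, which averaged 6.38, 14.6 and 7.72 in the same order. Summed endothelial markers were 0.55 to 0.587, 0.973 to 1.22 and 0.513 to 0.672, mostly CDH5, which averaged 0.535, 1.06 and 0.576. Only 2 of 9 fibroblast and 1 of 7 endothelial markers averaged at least 0.5. In bulk RNA, fewer cells of a type and less RNA per cell cannot be told apart.

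Differences between the knockdowns were widespread and mostly small. With limma and a Benjamini-Hochberg adjusted p under 0.05, 7921 genes (58.7%) were called, of which 3984 (29.5%) were higher and 3937 (29.2%) lower in siMENA11a. Without size factors the higher share of all calls went from 50.3% to 24.3%. There 15.1% of tested genes were called higher and 46.9% lower, the background for counts given below without size factors. At least 2-fold differences were called for 585 genes (4.33%), 366 higher (2.71%) and 219 lower (1.62%). Without size factors these were 227 and 388, so the larger direction turned. The 3 and 3 libraries did not overlap for 8792 genes (65.1%), and the median absolute log2 fold change was 0.25. The share called rose from 26.7% of genes under 1 scaled TPM to 71.9% of those from 20 to 100. Fold changes are on the log2(scaled TPM + 0.5) scale, which understates the change of low genes.

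**Figure D1:**
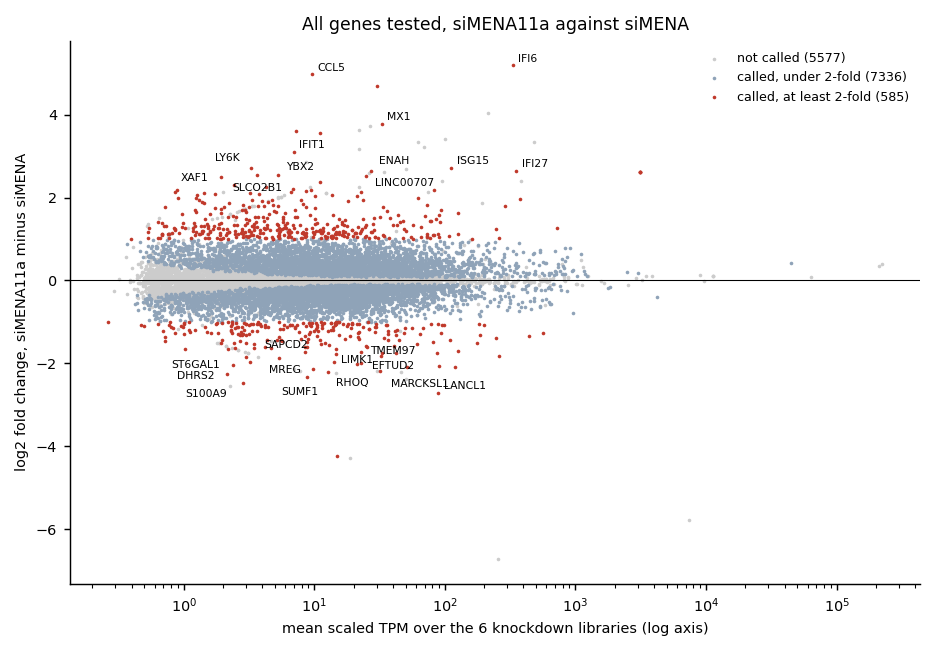
Log2 fold change of siMENA11a minus siMENA (y axis) against the mean scaled TPM of the 6 knockdown libraries (x axis, log scale) for the 13498 genes tested. Points are genes, red where called with at least 2-fold change (585), and the 12 highest and 12 lowest named genes are labelled, from IFI6 at 5.19 to LANCL1 at -2.72.

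Among genes other than small RNAs, pseudogenes, unnamed clones and histones, the highest were led by interferon-stimulated genes. Called small nucleolar RNAs outside that choice, such as SNORA18 at 4.69 (adjusted p = 0.00938) and SNORA80 at -4.25 (adjusted p = 0.0262), overlapped between the knockdown libraries and were picked for mention after they were seen. IFI6, a mitochondrial and endoplasmic reticulum protein induced by type I interferon, read 586, 689 and 667 scaled TPM in siMENA11a, 16.7, 17.7 and 17.2 in siMENA and 35.9, 36.5 and 41.7 in control. All 3 siMENA11a libraries lay far above all others, and the log2 fold change against siMENA was 5.19 ± 0.07 (adjusted p = 2.17e-10). CCL5, a chemokine that draws T cells, read 14.3, 18.4 and 24.4 in siMENA11a against 0, 0.149 and 0.193 in siMENA and 0.211, 0.864 and 0.611 in control. The siMENA11a libraries did not overlap the others (log2 fold change 4.97 ± 0.26, adjusted p = 3.14e-07), and the siMENA value lies near the bottom of the scale. MX1, a dynamin-like GTPase that blocks virus replication, read 54.0, 61.7 and 69.2 against 3.38, 4.41 and 4.21, with control at 4.92, 5.52 and 5.33 (3.79 ± 0.11, adjusted p = 1.1e-08). IFIT1, which binds foreign RNA at its 5' end, read 11.3, 13.2 and 14.2 against 0.928, 1.17 and 1.09 (3.10 ± 0.10, adjusted p = 2.99e-08). ISG15, a ubiquitin-like modifier, read 162, 202 and 219.8 against 30.9, 28.4 and 27.6 (2.72 ± 0.10, adjusted p = 5.64e-08). IFI27 read 589.9, 626 and 607 against 98.1, 93.7 and 98.3, and control at 95.4, 100.5 and 90.1 sat with siMENA (2.65 ± 0.04, adjusted p = 4.69e-10). XAF1, an interferon-inducible partner of the apoptosis inhibitor XIAP, averaged 3.63 against 0.223 and in control 0.251. For IFI6, MX1, IFIT1, ISG15, IFI27 and XAF1 the control mean was nearer to the siMENA mean than to the siMENA11a mean.

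The other genes among the 12 highest also had control means between those of the knockdowns, as had the genes above apart from IFI27. LINC00707, a long non-coding RNA, averaged 42.5 scaled TPM in siMENA11a, 6.94 in siMENA and 27.1 in control (log2 fold change 2.53 ± 0.05, adjusted p = 2.58e-09). YBX2, a germ-cell RNA-binding protein, averaged 9.42, 1.21 and 2.49 (2.55 ± 0.12). SLCO2B1, an organic anion transporter, averaged 6.61, 0.742 and 1.84 (2.55 ± 0.22), and LY6K, a GPI-anchored protein of testis and tumours, 6.02, 0.496 and 2.60 (2.71 ± 0.21). ENAH itself is the remaining member. In LINC00707 and ENAH the control mean was nearer to siMENA11a, and in YBX2, SLCO2B1 and LY6K nearer to siMENA, as in the interferon genes above. For each of these genes the 3 siMENA11a libraries lay above the 3 siMENA libraries, as the rule for naming them required.

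The lowest genes were of mixed function. LANCL1, a glutathione-binding protein, read 24.0, 23.2 and 22.1 scaled TPM in siMENA11a, 149.6, 158 and 156 in siMENA and 129, 123 and 126 in control (log2 fold change -2.72 ± 0.04, adjusted p = 2.17e-10). The siMENA11a libraries were well under both other groups. SUMF1, which activates the sulfatases of the lysosome, read 3.23, 2.32 and 2.19 against 14.1, 14.2 and 16.3, with control at 12.03, 11.9 and 12.04 (-2.33 ± 0.11, adjusted p = 1.99e-07). RHOQ (TC10), a small GTPase, read 4.46, 4.60 and 3.70 against 20.1, 21.3 and 22.8, with control at 18.4, 18.5 and 19.4 (-2.21 ± 0.08, adjusted p = 3.83e-08). LIMK1, the kinase that inactivates cofilin, read 5.10, 5.53 and 5.82 against 23.0, 22.1 and 23.2, with control at 24.9, 23.9 and 23.2 (-1.96 ± 0.05, adjusted p = 9.27e-09). EFTUD2, a GTPase of the spliceosome, averaged 8.19, 34.4 and 32.9 in siMENA11a, siMENA and control, and TMEM97, a sterol-regulated membrane protein, 8.86, 36.5 and 39.2. SAPCD2, a regulator of spindle orientation, averaged 2.01, 8.71 and 10.8, and was lower than control in siMENA as well (-0.30, adjusted p = 0.00447). MREG, a protein of melanosome and lysosome traffic, averaged 3.29, 16.1 and 11.1.

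In several of the lowest genes siMENA was called above control as well, by 0.29 on the log2 scale in LANCL1 and 0.52 in MREG, and by more in S100A9, DHRS2, MARCKSL1 and ST6GAL1. S100A9, a calcium-binding alarmin, read 0.440, 0.858 and 0.267 scaled TPM in siMENA11a, 4.35, 7.12 and 4.03 in siMENA and 0.593, 0.163 and 1.31 in control. Here siMENA11a overlapped control (log2 fold change -0.14, adjusted p = 0.761) and siMENA lay above both, 2.33 over control (adjusted p = 0.000573). DHRS2, a mitochondrial reductase, averaged 0.425, 3.90 and 0.927 in the same order, and MARCKSL1, an actin-binding substrate of protein kinase C, 11.2, 52.6 and 25.8. ST6GAL1, which adds sialic acid to N-glycans, averaged 0.633, 4.15 and 2.20. For DHRS2, MARCKSL1 and ST6GAL1 both knockdowns differed from control, in opposite directions (adjusted p between 3.21e-07 and 0.00144).

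**Figure D2:**
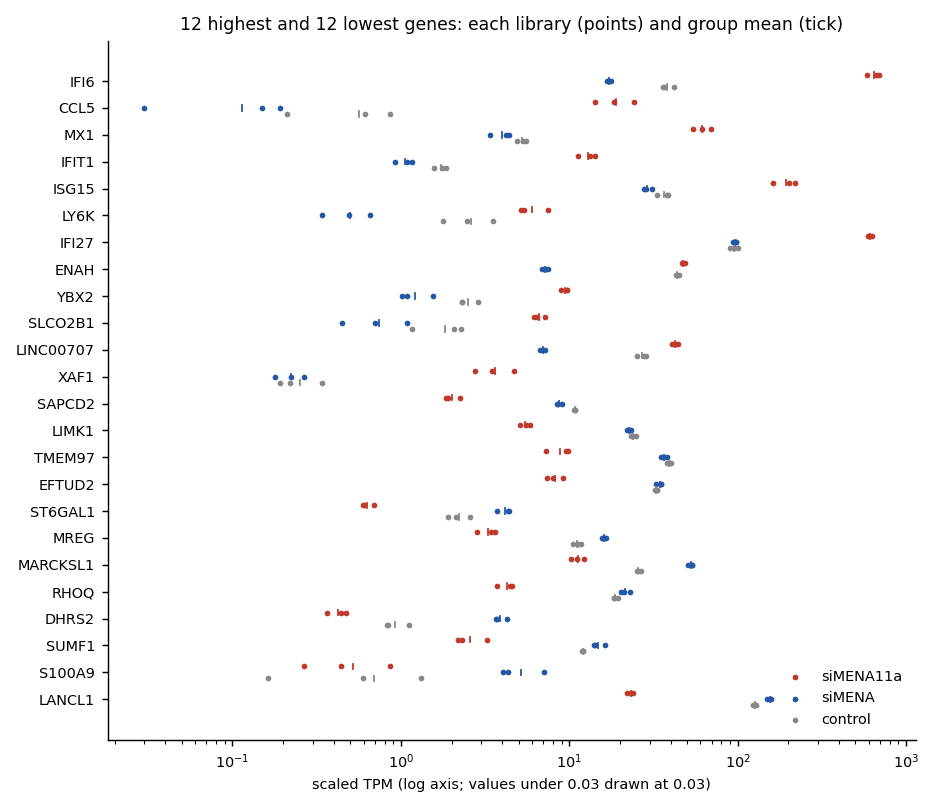
Scaled TPM (x axis, log scale) of the 12 highest and 12 lowest named genes in each library (points) with group means (ticks), coloured by group. IFI6 stands at 586 to 689 in siMENA11a and 16.7 to 17.7 in siMENA, and LANCL1 at 22.1 to 24.0 and 149.6 to 158.

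Interferon-stimulated effectors as a list moved higher in siMENA11a. Of 50 tested members, 45 were called higher and 0 lower, where 29.5% of all tested genes were called higher. At an unadjusted p under 0.05 in limma the lower count was also 0, and it was 1 after quantile normalisation, 2 after rescaling without small RNAs and 4 without size factors. The median log2 fold change was 1.05, beside 0.00 for all tested genes, and 25 of the 50 were called with at least 2-fold change, where 2.71% of all tested genes were called higher at that size. The antiviral synthetase and helicase genes spanned a wide range: OASL 2.10, OAS2 1.93, OAS3 0.80 and OAS1 0.72, with DDX60 at 1.79. The IFIT family fell off in the order IFIT1, IFIT2 (1.65), IFIT3 (1.48) and IFIT5 (1.00), and of the interferon-inducible membrane proteins IFITM1 was at 1.18, IFITM3 at 0.56 and IFITM2 at 0.50. The 5 members not called were GBP3 (0.03), ADAR (-0.04), ISG20 (-0.08), GBP2 (-0.12) and GBP1 (-0.14), singled out here after their values were seen, as were the family members above that the naming rule does not cover. The guanylate-binding proteins are best known as targets of interferon gamma. Against the shared control libraries the list's median was 0.96 for siMENA11a, with 44 members called higher and 4 lower. For siMENA it was -0.12, with 6 called higher and 21 lower. Of all tested genes 55.6% were called against control in siMENA11a and 49.4% in siMENA.

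The RNA sensors themselves were also higher in siMENA11a. DDX58, which encodes RIG-I, read 14.6, 15.9 and 15.5 scaled TPM in siMENA11a, 5.13, 5.68 and 5.76 in siMENA and 8.57, 8.01 and 7.69 in control, with no overlap among the 3 groups (log2 fold change 1.39 ± 0.06, adjusted p = 1.09e-07). IFIH1 read 8.11, 9.72 and 11.1 against 5.61, 5.80 and 5.97, and control was lowest at 4.62, 4.61 and 4.62 (0.68 ± 0.09, adjusted p = 0.000164). DHX58 (LGP2), a regulatory member of that family, averaged 11.6, 5.33 and 4.63 in siMENA11a, siMENA and control (1.05 ± 0.05). MAVS, the adaptor below both sensors, read 10.3, 9.39 and 9.94 against 6.79, 6.79 and 7.38, but control was above both knockdowns at 12.5, 12.4 and 13.3 (0.47 ± 0.05, adjusted p = 4.88e-05). The sensing genes with the smallest adjusted p were IFI16, a nuclear DNA sensor (35.0 against 12.1, 1.49 ± 0.05), and SAMHD1, a dNTP hydrolase (35.2 against 14.1, 1.29 ± 0.05). Over the list, 12 of 25 tested members were higher and 7 lower, beside 29.5% and 29.2% of all genes, with a median of 0.18. The counts without size factors were 7 higher and 10 lower, beside 15.1% and 46.9% of all genes. The list's lower members included the transcription factor IRF3 at -0.44 and the ribonuclease H2 subunit RNASEH2B at -0.57.

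Among interferon ligands, receptors and their signalling factors, STAT2 and IRF9 were higher and the ligands were near or at 0. STAT2 averaged 19.1 scaled TPM in siMENA11a against 11.4 in siMENA (0.73 ± 0.06) and IRF9 52.4 against 27.9 (0.90 ± 0.05), and both belong to the complex that binds the response element. USP18, a feedback inhibitor of the receptor, averaged 25.9 against 14.6 (0.81 ± 0.04). IL10RB, a shared receptor chain of interleukin 10 and lambda interferons, averaged 21.7 against 8.36, and control at 17.6 was closer to siMENA11a (1.32 ± 0.07). STAT4, a lymphoid STAT, was lower in siMENA11a at 0.961 against 3.98 (-1.62), a change chosen for mention after it was seen. IFNB1, the gene of interferon beta, was listed at 0 in 8 of the 9 libraries and at 0.088 in siMENA11a replicate 2. Over the list, 10 of 22 tested members were higher and 6 lower, beside 29.5% and 29.2% of all genes. The counts without size factors were 8 and 9, beside 15.1% and 46.9% of all genes. A pair of interferon targets under the level tested, picked after their values were seen, had their highest values in siMENA11a. BST2 (tetherin) was listed at 0.53, 1.88 and 1.45 there and at 0.0758, 0 and 0.0643 in siMENA. RSAD2 (viperin) was listed at 0.102, 0.341 and 0.36 there and at 0 in all 3 siMENA libraries. Not all such genes did so: GBP4 was at 0.0113, 0.011 and 0.0206 in siMENA11a and at 0.00947, 0.0186 and 0.0367 in siMENA.

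Promoters of the interferon-stimulated genes were read for the core of the response element. The motif TTTCNNTTTC, or GAAANNGAAA on the other strand, was searched in the 250 bases before the start of each gene in RefSeq sequences (GRCh38.p14), where N is any base. It was present in 24 of the 40 interferon effectors with a promoter sequence (60%), which are 40 of the 50 tested, beside 3.71% of 27305 RefSeq promoters. The effector list was chosen for its known response to interferon, so the share describes the list and not the knockdown. Among the 12 highest genes, which were chosen by this contrast, 5 of 10 with a sequence held it, beside 3.29% of tested genes with a sequence. Outside the interferon list it was in 4.26% of genes called higher at least 2-fold, beside 4.85% of genes called lower at least 2-fold. The stretches below are shown because they come from genes whose values carry the contrast, with every match in capitals. IFI6 has 3 matches within its 250 bases, IFIT1, ISG15, IFI27 and B2M 2 each and HLA-F 1. They lie at chr1:27672246-27672315 (minus), chr10:89392490-89392559 (plus), chr1:1013360-1013429 (plus), chr14:94110611-94110680 (plus), chr15:44711349-44711418 (plus) and chr6:29723248-29723317 (plus), in the order printed.
IFI6 promoter: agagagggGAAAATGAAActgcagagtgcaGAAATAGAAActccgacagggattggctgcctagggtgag
IFIT1 promoter: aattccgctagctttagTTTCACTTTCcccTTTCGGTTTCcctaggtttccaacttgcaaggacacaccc
ISG15 promoter: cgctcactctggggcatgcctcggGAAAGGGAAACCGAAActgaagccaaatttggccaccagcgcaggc
IFI27 promoter: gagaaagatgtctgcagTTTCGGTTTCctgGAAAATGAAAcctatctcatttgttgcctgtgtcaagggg
B2M promoter: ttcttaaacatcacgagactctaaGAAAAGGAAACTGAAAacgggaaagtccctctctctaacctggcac
HLA-F promoter: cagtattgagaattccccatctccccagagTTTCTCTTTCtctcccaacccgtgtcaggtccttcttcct
A match is a description of the letters and was not tested as a binding site.

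Antigen presentation genes were mostly higher in siMENA11a. Of 21 tested members 16 were called higher and 3 lower, beside 29.5% and 29.2% of all tested genes, and the median log2 fold change was 0.46. B2M, the light chain of class I molecules, read 955, 1056 and 1073 scaled TPM in siMENA11a, 434, 423 and 429 in siMENA and 619, 609 and 614 in control (1.26 ± 0.04, adjusted p = 4.19e-08). The siMENA11a libraries were above control and the siMENA libraries below it, with no overlap. HLA-F, a non-classical class I gene, averaged 66.5, 21.8 and 35.2 (1.59 ± 0.06), although reads of HLA genes can be split among near-identical copies and their values are uncertain. HLA-C, HLA-B and HLA-E were at 0.92, 0.79 and 0.60, and the peptide transporter subunit TAP1 at 0.73. Going the other way, the immunoproteasome subunit PSMB8 averaged 36.1 against 64.1 (-0.82 ± 0.04, adjusted p = 2.01e-07) with control at 92.4, and the peptide-trimming ERAP2 6.25 against 15.2 with control at 15.9 (-1.21 ± 0.06). PSME2, also lower, was at -0.19, a small fall next to its proteasome activator partner PSME1 at 0.46. Against control the list's median was 0.13 in siMENA11a and -0.31 in siMENA.

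Checkpoint ligands were called about as often as other genes. CD274, which encodes PD-L1, read 1.72, 1.71 and 2.02 scaled TPM in siMENA11a, 0.795, 0.858 and 0.698 in siMENA and 1.01, 1.18 and 0.931 in control (log2 fold change 0.85 ± 0.11, adjusted p = 0.000138). The siMENA11a libraries lay above both other groups, at a low level throughout. CD47, the signal against phagocytosis, averaged 6.05, 3.63 and 6.29, so siMENA was the low group (0.67 ± 0.06). NT5E (CD73), which makes adenosine, read 18.8, 18.5 and 17.1 against 36.5, 41.4 and 42.6, below control at 74.4, 75.6 and 66.2 in both (-1.12 ± 0.07, adjusted p = 8.77e-07). CD276 (B7-H3) averaged 37.2, 53.8 and 38.2, so siMENA was the high group (-0.53 ± 0.04). In all 2 of 10 tested members were higher and 3 lower, shares of 20% and 30% beside 29.5% and 29.2% of all genes.

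Cytokines and chemokines were more often higher, with 11 of 17 tested members called higher and 2 lower (8 and 4 without size factors) and a median of 0.32, where 29.5% of all genes were higher and 29.2% lower. Behind CCL5, the inflammasome cytokine IL18 averaged 88.6 scaled TPM in siMENA11a, 49.2 in siMENA and 42.2 in control (0.84 ± 0.06, adjusted p = 2.97e-06). The neutrophil chemokine CXCL2 averaged 27.9, 15.0 and 24.4 (0.87 ± 0.05), and TGFB2 20.6, 11.4 and 29.6 (0.83 ± 0.04). IL18 was thus high in siMENA11a, whereas CXCL2 and TGFB2 were lowest in siMENA. The lower pair was IL6 (-0.32) and CSF1 (-0.36), named after their values were seen.

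Lymphotoxin and NF-kappaB genes were balanced, with 8 of 25 tested members higher, 8 lower and a median of -0.05. Of all genes 29.5% were higher and 29.2% lower. The counts without size factors were 3 higher and 14 lower, beside 15.1% and 46.9% of all genes. LTB, which encodes lymphotoxin beta, read 1.61, 1.75 and 0.812 scaled TPM in siMENA11a, 0.767, 0.0746 and 0.147 in siMENA and 5.75, 5.50 and 4.62 in control (log2 fold change 1.24 ± 0.30, adjusted p = 0.00533). Both knockdowns lay under control and the lowest siMENA11a library was just above the highest siMENA library. The receptor LTBR averaged 24.1 against 33.2 (-0.46 ± 0.06), and the kinase MAP3K14 (NIK), which drives the non-canonical branch, 7.76 against 15.1 with control at 20.4 (-0.92 ± 0.05, adjusted p = 4.71e-07). RELB, the transcription factor of that branch, averaged 8.05, 15.4 and 17.5 (-0.89 ± 0.07), and NFKB2, its partner, 37.1, 43.3 and 59.5 (-0.22 ± 0.05, adjusted p = 0.00456). Against control the list's median was -0.30 in siMENA11a and -0.28 in siMENA.

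The other Ena/VASP proteins were a little lower in siMENA11a than in siMENA. VASP read 67.7, 63.8 and 64.0 scaled TPM against 76.0, 75.9 and 76.9, with control at 85.3, 85.0 and 85.4 (log2 fold change -0.23 ± 0.03, adjusted p = 0.000132). EVL averaged 17.7 against 25.01 with control at 22.9 (-0.49 ± 0.05, adjusted p = 1.72e-05). RAPH1 (lamellipodin), which brings Ena/VASP proteins to the membrane, averaged 11.7, 6.66 and 15.5 (0.77 ± 0.05), and LASP1, an adaptor at focal adhesions, 277, 148 and 241 (0.91 ± 0.04). FBLIM1 (migfilin), a filamin partner at adhesions, averaged 10.8, 21.2 and 20.1 (-0.94 ± 0.03). Counting ENAH, 12 of 23 tested members of the family and its partners were higher and 8 lower, beside 29.5% and 29.2% of all genes. Leaving out size factors gave 5 and 10, beside 15.1% and 46.9% of all genes.

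Actin regulators went both ways. Of 44 tested genes of actin assembly, capping and severing 18 were higher and 10 lower, with a median of 0.07. These shares were 40.9% and 22.7%, beside 29.5% and 29.2% of all genes. Leaving out size factors gave 7 and 24, beside 15.1% and 46.9% of all genes. CORO1C, a coronin of lamellipodia, averaged 80.3 scaled TPM in siMENA11a, 45.1 in siMENA and 62.3 in control (0.83 ± 0.03). DIAPH1, a formin driven by RhoA, averaged 16.9, 34.2 and 36.8 (-0.999 ± 0.037, adjusted p = 5.12e-08), and ARPC1B, a subunit of the Arp2/3 complex, 54.5, 84.2 and 78.2 (-0.62 ± 0.03). For DIAPH1, ARPC1B and LIMK1 the siMENA mean lay near control and siMENA11a was the low group.

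Tropomyosin and contractile genes differed in both directions. TPM1, a tropomyosin of stress fibres, read 192, 191 and 189.6 scaled TPM in siMENA11a, 60.1, 59.8 and 63.9 in siMENA and 371, 361 and 355 in control (log2 fold change 1.63 ± 0.03, adjusted p = 1.68e-09). Both knockdowns were below control and siMENA was further below, with no overlap. MYL12A, a regulatory myosin light chain, averaged 348, 146.9 and 333 (1.24 ± 0.04), whereas MYL9, its close paralogue, read 114, 104 and 102 against 268, 271 and 257, with control at 249, 249 and 240.0 (-1.31 ± 0.04, adjusted p = 3.21e-08). RHOA, the GTPase that drives contraction, read 63.4, 57.8 and 55.0 against 191, 188 and 197, with control at 224, 229 and 227 (-1.70 ± 0.05, adjusted p = 1.09e-08). MYL9 was thus called lower than control in siMENA11a and not in siMENA (adjusted p = 0.067), and MYL12A in siMENA and not in siMENA11a (adjusted p = 0.16). RHOA was lower than control in both, by more in siMENA11a (-1.94) than in siMENA (-0.24, adjusted p = 0.00252). Over the list 19 of 33 tested members were higher and 11 lower. These shares were 57.6% and 33.3%, beside 29.5% and 29.2% of all genes. Leaving out size factors gave 8 and 13, beside 15.1% and 46.9% of all genes.

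Integrins and adhesion receptors included some of the larger differences among cytoskeletal and adhesion genes. ITGB1, the common beta chain of most matrix integrins, read 586, 593 and 614 scaled TPM in siMENA11a, 133, 167 and 162 in siMENA and 569, 564 and 563 in control (log2 fold change 1.96 ± 0.07, adjusted p = 5.08e-08). Its difference from control was 0.08 in siMENA11a (adjusted p = 0.384) and -1.88 in siMENA (adjusted p = 1.68e-07). SDC4, a heparan sulfate proteoglycan of focal adhesions, read 136, 132 and 138 against 28.1, 31.0 and 29.7, with control at 99.5, 106 and 92.5 (2.18 ± 0.05, adjusted p = 5.97e-09). ITGAV averaged 61.5, 24.2 and 48.1 (1.33 ± 0.07), and PTK2, which encodes focal adhesion kinase, 38.8, 17.0 and 34.0 (1.17 ± 0.04). In each of these 4 genes the control mean was nearer to siMENA11a than to siMENA. Of 29 tested members 16 were higher and 5 lower with a median of 0.17, beside 29.5% and 29.2% of all genes. Leaving out size factors gave 12 and 12, beside 15.1% and 46.9% of all genes.

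Matrix, TGF-beta and epithelial genes showed no common direction. In the matrix and mesenchymal list 10 of 30 tested members were higher and 10 lower (8 and 13 without size factors). All genes stood at 29.5% higher and 29.2% lower, or 15.1% and 46.9% without size factors. AXL, a receptor kinase of mesenchymal tumour cells, read 103, 105 and 107 scaled TPM in siMENA11a, 33.4, 36.0 and 36.3 in siMENA and 88.2, 85.9 and 88.7 in control (1.56 ± 0.04, adjusted p = 5.5e-09), and VIM averaged 873, 532 and 1015 (0.72 ± 0.05). LOXL2, which crosslinks collagen, averaged 72.9, 39.6 and 85.0 (0.87 ± 0.04). THBS1 (thrombospondin 1) averaged 119, 246 and 453 (-1.04 ± 0.05), and COL1A1 6.38, 14.6 and 7.72 (-1.13 ± 0.06), so that THBS1 was under control in both knockdowns and COL1A1 above control in siMENA. For fibronectin, which averaged 6.37 against 8.001, the log2 fold change of FN1 was -0.30 ± 0.10 (adjusted p = 0.0244), a call that was lost when any of 5 of the 6 knockdown libraries was left out, all but siMENA replicate 1 (adjusted p 0.0517 to 0.0782).

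In the TGF-beta pathway 11 of 32 tested members were higher and 12 lower (5 and 17 without size factors), also near the shares of all genes, 29.5% and 29.2%. The type II receptor TGFBR2 read 19.1, 18.9 and 18.9 scaled TPM in siMENA11a, 64.4, 65.9 and 65.9 in siMENA and 92.9, 94.5 and 87.6 in control (log2 fold change -1.76 ± 0.03, adjusted p = 1.15e-09). TGFBI, a secreted protein named for its induction by the pathway, averaged 169, 94.1 and 214 (0.85 ± 0.05). The receptor and this target thus differed in opposite directions between the knockdowns. Of YAP and SRF targets 16 of 34 were higher and 9 lower, shares of 47.1% and 26.5%. Leaving out size factors gave 7 and 13, beside 15.1% and 46.9% of all genes. Among these targets the orphan nuclear receptor NR4A1 was at 10.3, 35.2 and 13.1 (-1.73 ± 0.08), high in siMENA alone.

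Epithelial junction and keratin genes gave 10 higher and 5 lower of 28 tested (5 and 12 without size factors). All genes stood at 29.5% higher and 29.2% lower, or 15.1% and 46.9% without size factors. KRT7, a keratin of lung adenocarcinoma, read 16.4, 15.9 and 15.1 scaled TPM in siMENA11a, 4.12, 4.29 and 4.56 in siMENA and 9.96, 11.3 and 8.52 in control (1.76 ± 0.09, adjusted p = 2.62e-07). The polarity gene PARD3 averaged 67.4, 43.7 and 51.9 (0.62 ± 0.03), and the tight junction gene CLDN1 44.1, 78.3 and 91.4 (-0.82 ± 0.03). EPCAM was not called (2.90 against 3.10, adjusted p = 0.564), although both knockdowns were above control at 1.46. CDH1, which encodes E-cadherin, was listed at 0.0411 to 0.0451 in siMENA11a and 0.0568 to 0.129 in siMENA, under the level tested.

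**Figure D3:**
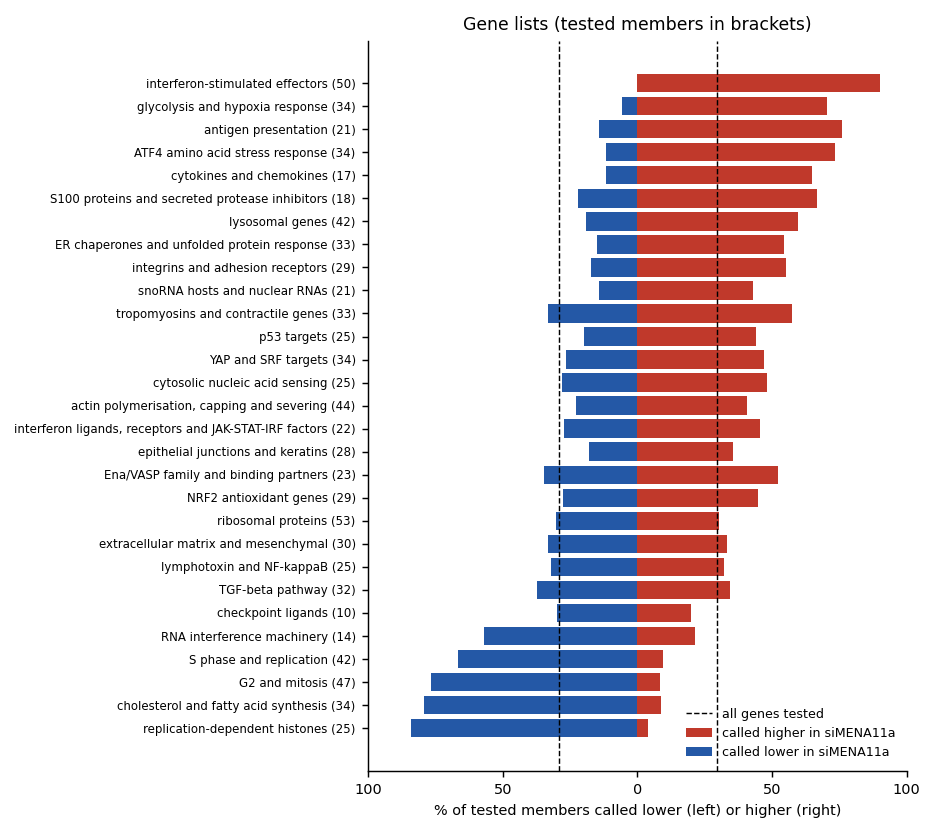
Share of tested members of each gene list called lower (blue, left) or higher (red, right) in siMENA11a than in siMENA, in percent, with the share of all tested genes as dashed lines (29.2% and 29.5%). Interferon-stimulated effectors reach 90% higher, and replication-dependent histones 84% lower.

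Proliferation genes were lower in siMENA11a. Of 47 tested G2 and mitosis genes 36 were called lower and 4 higher, beside 29.2% and 29.5% of all tested genes, with a median log2 fold change of -0.32. FOXM1, the transcription factor of mitotic genes, read 32.6, 34.9 and 32.7 scaled TPM in siMENA11a, 57.3, 57.0 and 55.0 in siMENA and 62.5, 62.3 and 60.0 in control (-0.75 ± 0.04, adjusted p = 1.99e-07). BUB1B, a spindle checkpoint kinase, averaged 25.4 against 41.7, RACGAP1, a regulator of cytokinesis, 26.2 against 42.9, and CCNB1 (cyclin B1) 56.0 against 85.5. MKI67, the proliferation marker, differed less, with 48.9 against 62.2 and 79.0 in control (-0.35 ± 0.03, adjusted p = 1.08e-05). For FOXM1, BUB1B, RACGAP1 and CCNB1 the siMENA mean was nearer to control than to siMENA11a. MKI67 was under control in both knockdowns, at -0.34 in siMENA. FOXM1 and RACGAP1 were too, with smaller falls in siMENA (-0.13 and -0.11, limma adjusted p = 0.0165 and 0.0346).

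S phase genes followed, with 28 of 42 tested members lower, 4 higher and a median of -0.23 (39 lower and 1 higher without size factors), beside 29.2% lower and 29.5% higher of all genes. GINS2 of the replicative helicase averaged 16.3 scaled TPM against 26.5 (-0.69 ± 0.06), MCM7 61.2 against 82.0 (-0.42 ± 0.03), POLE, the leading-strand polymerase, 12.1 against 16.9 (-0.47 ± 0.03), and DUT, which removes dUTP, 20.8 against 31.4 (-0.58 ± 0.05). All 4 were under control in both knockdowns and lower in siMENA11a. The 4 higher members, named after their values were seen, were TYMS (0.43), PCNA (0.10), MCM3 (0.10) and CDC6 (0.07). Replication-dependent histone genes were lower in 21 of 25 tested, with 1 higher and a median of -0.57. HIST1H3B averaged 291, 434 and 718 in siMENA11a, siMENA and control (-0.58 ± 0.04), and HIST1H1E 212, 306 and 478 (-0.53 ± 0.03). Histone copies share sequence, so reads may be split among them, and their single values are uncertain. Against control the medians in siMENA11a and siMENA were -0.55 and -0.21 for mitosis, -0.53 and -0.27 for S phase and -1.03 and -0.51 for histones.

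Sterol and fatty acid synthesis was the metabolic list with the most lower members. Of 34 tested 27 were called lower and 3 higher, beside 29.2% and 29.5% of all genes, with a median of -0.49. FASN, fatty acid synthase, read 23.7, 23.1 and 21.0 scaled TPM in siMENA11a, 48.2, 47.7 and 49.1 in siMENA and 36.1, 37.9 and 41.4 in control (-1.08 ± 0.06, adjusted p = 3.28e-07). The siMENA11a libraries were below control and the siMENA libraries above it. CYP51A1, a sterol demethylase, averaged 22.6, 40.9 and 37.9 (-0.84 ± 0.03), and ACAT2, which makes acetoacetyl-CoA, 36.7, 62.4 and 63.2 (-0.76 ± 0.04). INSIG2 (0.67), STARD4 (0.55) and SC5D (0.16) were the 3 higher members, named after their values were seen. The list's median against control was -0.39 in siMENA11a and 0.02 in siMENA.

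Stress and glycolytic genes were mostly higher. Of 34 tested members of the ATF4 response 25 were higher and 4 lower, beside 29.5% and 29.2% of all genes, and the median was 0.46. CHAC1, which degrades glutathione, read 10.5, 13.7 and 15.5 scaled TPM in siMENA11a, 3.11, 3.19 and 3.44 in siMENA and 2.66, 2.17 and 2.40 in control (1.86 ± 0.13, adjusted p = 1.5e-06). SESN2, a stress inhibitor of mTORC1, averaged 4.71, 0.993 and 1.07 (1.81 ± 0.15), and ASNS (asparagine synthetase) 32.8, 16.6 and 15.3 (0.95 ± 0.08). ATF4 itself averaged 169.6, 90.8 and 136 (0.90 ± 0.04) and the cystine transporter SLC7A11 69.8, 30.3 and 43.1 (1.19 ± 0.06). CHAC1 was above control in both knockdowns, by 2.22 in siMENA11a and 0.36 in siMENA (adjusted p = 0.0353). ATF4 and SLC7A11 were above control in siMENA11a and below it in siMENA. The 4 lower members were SLC38A2 (-0.20), CEBPB (-0.27), SLC7A5 (-0.29) and TRIB3 (-0.48), named after their values were seen.

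In the glycolysis and hypoxia list 24 of 34 tested members were higher and 2 lower, with a median of 0.38, beside 29.5% and 29.2% of all genes. The lower count was 8 without size factors and 4 after quantile normalisation or rescaling without small RNAs. PGAM1, a phosphoglycerate mutase, read 467, 454 and 428 scaled TPM in siMENA11a, 119.5, 128 and 138 in siMENA and 402, 403 and 400.3 in control (1.80 ± 0.05, adjusted p = 1.43e-08). It was low in siMENA and slightly above control in siMENA11a. The glucose transporters SLC2A1 (55.9, 28.6 and 52.6) and SLC2A3 (57.3, 22.3 and 31.1) differed by 0.95 ± 0.03 and 1.34 ± 0.05. The lower pair was HIF1A (-0.63), the hypoxia-inducible factor, and CA12 (-1.12), a carbonic anhydrase, named after their values were seen. Against control the list's median was 0.08 in siMENA11a and -0.30 in siMENA, and that of the ATF4 list 0.25 and -0.18.

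The counts that follow stand beside 29.5% of all genes called higher and 29.2% lower, or 15.1% and 46.9% without size factors. Lysosomal genes were higher in 25 of 42 tested and lower in 8 (15 and 13 without size factors). CTSB, the protease cathepsin B, was lower at 14.9 scaled TPM against 51.5 and 64.6 in control (-1.76 ± 0.07, adjusted p = 8.89e-08), and the proton pump subunit ATP6V1A averaged 51.6, 28.3 and 34.4 (0.86 ± 0.04). Chaperones of the endoplasmic reticulum were higher in 18 of 33 and lower in 5 (8 and 11 without size factors), with the coat protein SEC23B at 6.02, 18.1 and 15.4 (-1.52 ± 0.05). NRF2 target genes were higher in 13 of 29 and lower in 8 (7 and 15 without size factors), and KEAP1, the inhibitor of NRF2, averaged 23.4, 41.4 and 43.1 (-0.81 ± 0.05).

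The remaining lists are read against the same shares of all genes. Of p53 targets 11 of 25 were higher and 5 lower (8 and 8 without size factors), with GADD45B at 16.4, 8.69 and 16.4 scaled TPM and GDF15 at 16.6, 30.2 and 14.2 in siMENA11a, siMENA and control. For both, the siMENA11a mean was nearer to control than the siMENA mean was, and siMENA departed from control in opposite directions. S100 proteins and secreted protease inhibitors were higher in 12 of 18 and lower in 4, with S100A16 at 351, 172 and 228 (1.03 ± 0.05). Proteins of RNA interference were lower in 8 of 14 and higher in 3, with DROSHA at 19.8, 26.5 and 26.6 (-0.41 ± 0.03), XPO5 at 15.2, 22.5 and 22.1 (-0.55 ± 0.04), and RAN, which has many other roles in nuclear transport, at 376, 218 and 440.3 (0.78 ± 0.03). Hosts of small nucleolar RNAs and nuclear RNAs were higher in 9 of 21 and lower in 3, with MALAT1 at 404, 300.5 and 298 (0.42 ± 0.03). Going the other way, NEAT1 was at 30.3, 54.9 and 39.3 (-0.84 ± 0.07), the lowest of the list, and SNHG16 at 54.4, 78.0 and 91.4 (-0.52 ± 0.04). The RN7SL share of TPM was higher in siMENA11a. The part of that share in these values was not tested. Ribosomal protein genes were higher in 16 of 53 and lower in 16 (3 and 37 without size factors), with RPLP0 at 332, 797 and 788 (-1.26 ± 0.06) and RPS6 at 479.7, 255 and 476 (0.91 ± 0.05), and single values in this family are uncertain because of its many pseudogenes.

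**Figure D4:**
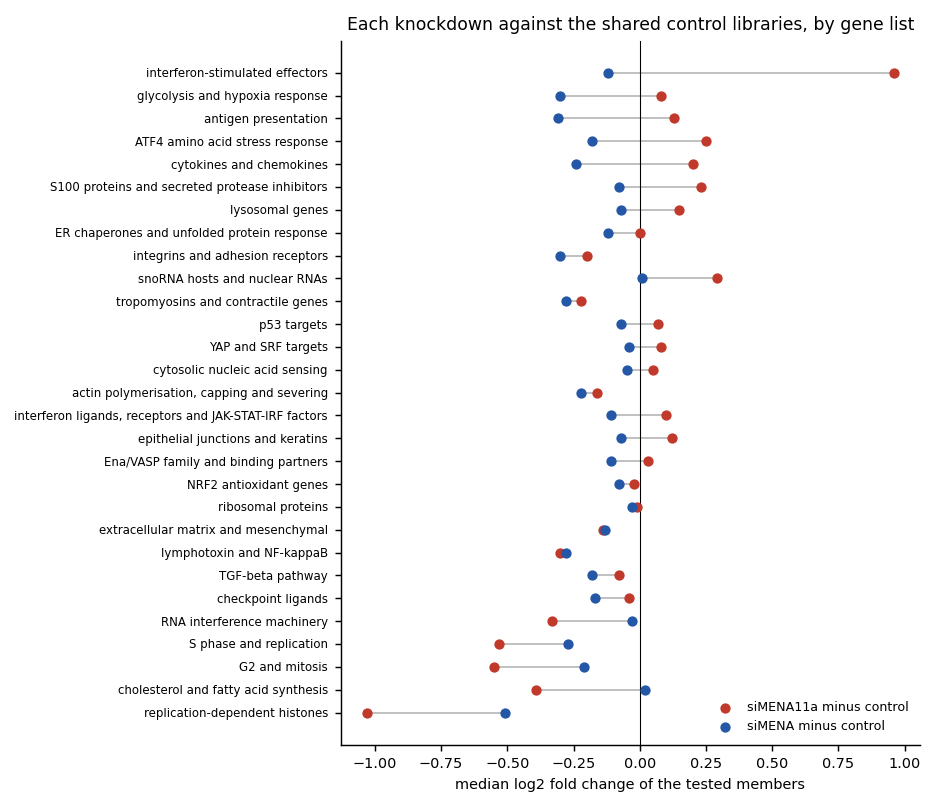
Median log2 fold change of the tested members of each gene list (x axis) for siMENA11a minus control (red) and siMENA minus control (blue), joined by a line. Both sets of medians rest on the same 3 control libraries. Interferon-stimulated effectors stand at 0.96 and -0.12, cholesterol and fatty acid synthesis at -0.39 and 0.02, and histones at -1.03 and -0.51.

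Short sequence words differed in frequency between genes that were lower and genes that were higher. A small RNA can pair through its seed with short words in the 3' untranslated regions (UTRs) of other transcripts, so words were searched in the annotated 3' UTRs of 11311 of the 13498 tested genes (83.8%; GENCODE 29, GRCh38, basic coding transcripts, transcript strand). The words CAAGGAA and CCAAGGA stand in exon 11a, where they overlap as CCAAGGAA, and are called exon words. The words CAGAATA and AGAATAA, and the words CAGCGTA and AGCGTAA, stand in the 3' UTR of ENAH and are called ENAH words. The first pair and the second pair of ENAH words each overlap by 6 bases. All were picked in earlier work for how genes that carry them differed in these libraries, so their shares are a description with no test. The siRNA sequences were not used here, and whether any siRNA strand pairs with these words was not tested.

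Exon words were present in the 3' UTR of 124 of 197 searched genes called lower at least 2-fold (62.9%), of 57 of 283 called higher at least 2-fold (20.1%), and of 23.7% of genes not called, beside 25.8% of all searched genes. ENAH words ran the other way, with 133 of 283 genes higher at least 2-fold (47.0%), 49 of 197 lower (24.9%) and 30.1% of all searched. The median log2 fold change was -0.11 for 1597 genes with exon words only, 0.13 for 2081 with ENAH words only, -0.01 for 1324 with both and -0.02 for 6309 with neither. It was -0.17 for the 635 genes that hold the full 8 bases. Longer 3' UTRs hold more words of any kind, and length was not adjusted for. Of the 12 lowest genes 9 hold an exon word and 1 an ENAH word, and of the 11 searched among the 12 highest 2 hold an exon word and 5 an ENAH word.

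**Figure D5:**
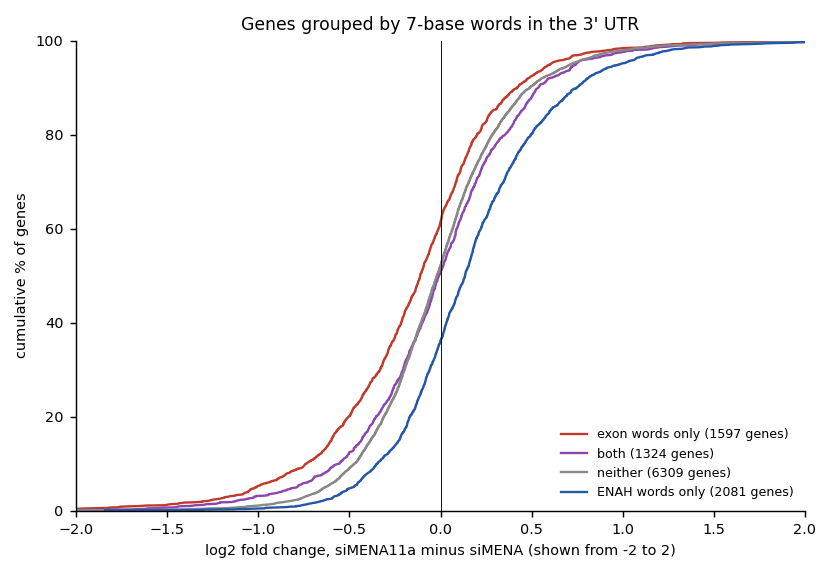
Cumulative share of searched genes (y axis, percent) against log2 fold change of siMENA11a minus siMENA (x axis, shown from -2 to 2), by the words in the 3' UTR. The curve of genes with exon words only lies left of the others (median -0.11) and that of genes with ENAH words only lies right (median 0.13).

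The sites of 6 of the lowest genes described above are shown because each carries the full 8 bases of exon 11a, in capitals, with up to 10 bases of the UTR on each side.
LANCL1 site: ccgttgctttCCAAGGAAacaaagagtc
SUMF1 site: caaCCAAGGAAagtcttcccc
RHOQ site: tcttcagtggCCAAGGAAactgtccatt
EFTUD2 site: ggctccattcCCAAGGAAaagagaggag
LIMK1 site: accgtgacgtCCAAGGAAccaaacccag
SAPCD2 site: cctccctcagCCAAGGAAaacgagaacc
MYL9 has the same 8 bases, and RHOA has the 7-base word CAAGGAA beside an ENAH word. Of the lowest genes in which siMENA was called above control, LANCL1, MREG and ST6GAL1 hold an exon word and S100A9, DHRS2 and MARCKSL1 hold none. In SUMF1 (0.296), RHOQ (0.185) and EFTUD2 (0.065) siMENA was above control without a call (limma adjusted p = 0.0524, 0.0679 and 0.442). All of these hold both exon words.
The sites of 4 genes that were higher in siMENA11a are shown with their ENAH words in capitals, the first from ENAH itself and PGAM1, KRT7 and MYL12A from genes whose siMENA level was under control.
ENAH site: gaaatctcttCAGAATAgtcatcatga
PGAM1 site: acaatctagtCAGAATAgcagttctag
KRT7 site: aaagtgatgtCAGAATAgcttccaata
MYL12A site: atatcattttCAGAATAAaaaataggat

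The words were unevenly spread over the gene lists. Of the 45 interferon effectors called higher, all with a searched 3' UTR, 12 hold an ENAH word (26.7%). That share is under the 30.1% of all searched genes. Among all genes called higher, ENAH words were in 47% of those at least 2-fold and 38.6% of those under 2-fold. IFI6 and IFIT1 are among those that do, IFIT1 with an exon word as well, and CCL5, MX1, ISG15 and IFI27 hold neither kind. Of the 27 cholesterol and fatty acid genes called lower, 12 hold an exon word (44.4%), TMEM97 among them, beside 25.8% of all searched genes. Among all genes called lower, exon words were in 62.9% of those at least 2-fold and 30% of those under 2-fold. Of the 36 mitosis genes called lower 2 hold one (5.56%), and of the 28 S phase genes 7 (25%). For integrins and adhesion receptors called higher, 8 of 16 hold an ENAH word (50%), ITGAV among them, whereas ITGB1 and SDC4 hold none. No p is given for these counts, since the words and the lists were chosen with results of these libraries known.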

How the data were processed

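RNA-seq libraries of H2030 cells (3 groups of 3, ribosomal RNA depleted, stranded, paired-end) were analysed from a gene table in TPM deposited by the authors. The submitters' processing notes name kallisto and GRCh37, with no role or version, whereas the name of the deposited table points to RSEM, so which tool made the TPM values is not settled. Settings: not given in the sources used here. Median-of-ratios size factors, from the 12341 genes that averaged 1 TPM or more, scaled the values. The 13498 genes averaging 0.5 scaled TPM or more across the 9 libraries entered limma 3.58.1 (R 4.3.3) as log2(scaled TPM + 0.5), with 3 group means, a mean trend and Benjamini-Hochberg adjustment over all of them. Called means an adjusted p under 0.05. The code recovered known changes when tested on simulated data. Those data held as many rises as falls and no shift in composition, so they do not check the scaling. TPM keeps no depth, so precision rests on the spread of 3 libraries per group. No 2 libraries held identical values.

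The text names the 12 highest and 12 lowest fold changes (called, mean of 1 or more, no overlap between the knockdowns, with clones, pseudogenes, small RNAs, read-through genes and histones left out), up to 4 genes of each list with the smallest adjusted p, and a further set, 146 in all. The 33 gene lists hold 1014 genes, 28 of them in more than 1 list. The members and lists were chosen with earlier results of these data known. Same-numbered libraries deviated together by r = 0.058, 0.025 and 0.031, so replicate numbers were not taken to pair them. Alternatives were other pseudocounts, filters, scalings and limma settings, the replicate block and leaving out each knockdown library. The 3' UTRs came from GENCODE 29 (GRCh38) and promoters from RefSeq (GRCh38.p14). Figures were drawn with Python 3.11.15 and matplotlib 3.10.9. Some genes of the lists are not reported here.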

Additional observations from a re-analysis of the deposited data

How the results depend on the processing

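Of 585 calls at 2-fold, 571 to 585 were kept in the same direction under each alternative but the filter at a mean of 5 scaled TPM, where 341 were kept and 244 were not tested. No named gene changed sign under any alternative in which it was tested. The scaling moved counts most, and it turned the larger direction of the 2-fold counts and of several lists. Without size factors (TPM as deposited; median shift -0.20, 24.3% of calls higher instead of 50.3%) 15.1% of tested genes were called higher and 46.9% lower, and 227 and 388 genes at 2-fold. Higher counts there were sensing 7, NF-kappaB 3, Ena/VASP 5, actin 7, contractile 8, YAP and SRF 7, TGF-beta 5, epithelial junctions 5, S phase 1, mitosis 1, histones 0, chaperones 8, NRF2 7, lysosome 15, ribosomal proteins 3 and S100 proteins 7. Lower counts there were interferon effectors 4, NF-kappaB 14, cytokines 4, actin 24, integrins 12, epithelial junctions 12, p53 targets 8, chaperones 11, glycolysis 8, NRF2 15, lysosome 13, ribosomal proteins 37 and epithelial markers 3. After rescaling without small and structured RNAs (shift -0.03, 45.7% higher) 353 genes were lower at 2-fold, with interferon effectors 2, integrins 8, glycolysis 4 and epithelial markers 2 lower, S phase 1 higher and histones 0 higher. Quantile normalisation gave interferon effectors 1, glycolysis 4 and epithelial markers 2 lower, and S phase 1 and ribosomal proteins 10 higher. The filter at 5 tested fewer genes and left 204 higher and 138 lower at 2-fold, interferon ligands and signalling 3, cytokines 1 and glycolysis 1 lower, and checkpoint 1 and p53 targets 7 higher. S phase had 2 higher without the mean trend and 1 with the 6 knockdown libraries alone, where interferon effectors had 1 lower. With the replicate block S phase had 2 higher, and 585 of the 585 calls at 2-fold were kept. The cause of these moves was not tested. Leaving out 1 knockdown library gave 1 to 3 higher S phase genes, 0 to 1 higher histones, 3 to 5 lower chaperones and 10 to 17 higher ribosomal proteins. Ribosomal proteins fell to 10 without siMENA11a replicate 2 or siMENA replicate 1, and chaperones to 3 without siMENA11a replicate 2, siMENA replicate 2 or siMENA replicate 3. FN1 was the only named gene whose call was lost under any alternative, without each of 5 libraries.

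The depth of the libraries is unknown, so low genes such as CCL5, S100A9 and LTB in this comparison carry a counting error that could not be computed.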
